A study of Danio rerio with 16 samples.

Results

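Transcripts of 10 laminin chains were followed in whole zebrafish embryos with and without fbn3, at 2 stages of development. The chains are the rows of the count table whose gene name is lama1, lama2, lama4, lama5, lamb1a, lamb1b, lamb2, lamb4, lamc1 or lamc3. They are 10 of the 32520 genes in the table, and all 10 were among the 23555 genes with enough reads to be tested. The 4 groups were fbn3-/- embryos at 2 days postfertilization (dpf) (n = 5 libraries), WT embryos at 2 dpf (n = 3), fbn3-/- embryos at 1 dpf (n = 3) and WT embryos at 1 dpf (n = 4). The mutated gene, which encodes zebrafish fibrillin-3, is called fbn2b in the labels and the count table, where the genotypes are fbn2b -/- and fbn2b +/+. The mutant is a stable CRISPR/Cas9 line, and homozygotes can be recognized by atrophy of their fin folds. Each library is the total RNA of a pool of 10 embryos, so that the spread between libraries is that between pools.

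Laminins are the trimeric glycoproteins on which basement membranes are built. Each trimer joins an alpha, a beta and a gamma chain. The alpha chain carries the sites that bind integrins and dystroglycan on the cell surface, and the gamma chain carries the site for nidogen, which links the laminin network to collagen IV and perlecan. In zebrafish, loss of lama1, lamb1a or lamc1 (the bashful, grumpy and sleepy mutants) disturbs the notochord and the body axis, loss of lama2 (candyfloss) tears muscle fibers from their attachments, and lama5 is needed for the fin fold.

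In these embryos 7 of the 10 laminin chains differed between the stages in each genotype and 0, at the threshold used, between the genotypes. Of all genes tested, 56.3% differed between the stages in fbn3-/- embryos and 54.6% in WT embryos. The count of chains that differed between the stages is thus near the background. In both genotypes lamc3, lamb1b and lama4 were higher at 2 dpf than at 1 dpf, and lama1, lamb1a and lamc1 were lower. The largest change among the 10 was that of lamc3, at 3.99-fold in fbn3-/- embryos and 3.15-fold in WT embryos. No laminin chain passed the test between fbn3-/- and WT embryos at 2 dpf or at 1 dpf.

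Levels are given as CPM, the reads on a gene relative to the reads of its library, in counts per 1000000, after scaling with the TMM factors of edgeR. CPM is not corrected for the length of a transcript, so that values are compared between libraries and not between chains. Fold changes are log2 values from edgeR's quasi-likelihood fit of all 15 libraries, given with the standard error (SE), and the adjusted p value is the false discovery rate (FDR) over the 23555 genes. A gene passed at an FDR under 0.05.

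Total counts ranged from 41473603 to 179887580 per library, and the 10 chains together held between 0.109% and 0.194% of them. The lowest count of any chain in any library was 647, for lama2, so that counting error was small beside the differences between pools. The mutated gene itself, fbn2b, was at 20.75, 18.8, 19.38, 18.4 and 15.09 CPM in fbn3-/- embryos at 2 dpf, against 230.1, 163.5 and 239.2 CPM in WT embryos at 2 dpf. At 1 dpf, fbn2b was at 19.49, 23.39 and 28.74 CPM in fbn3-/- embryos, against 102.8, 166.3, 170 and 336.9 CPM in WT embryos. The genotypes did not overlap at either stage, in the direction of the labels, with a log2 fold change of -3.51 at 2 dpf and -3.02 at 1 dpf. A multidimensional scaling separated the stages on its first dimension, with 54.5% of the variance. Its second dimension, with 11.7%, separated the libraries with lower library numbers from those with higher ones. The cut between these sets falls between fbn3-/- replicate 3 and WT replicate 4 at 1 dpf, whose numbers follow each other. The labels mark no such sets. Since the cut coincides with the sign of the second dimension, this separation is no independent support for it. All fbn3-/- libraries at 1 dpf have lower numbers, as have 3 of the 5 fbn3-/- libraries at 2 dpf, 1 of the 3 WT libraries at 2 dpf and 2 of the 4 WT libraries at 1 dpf. Marker genes of notochord, skeletal muscle, endothelium and epidermis were all detected in every group. Of the genes on these 4 lists, 0 passed between the genotypes, where 0.233% of all genes tested passed at 2 dpf and 0.00425% at 1 dpf. At 2 dpf, 4 of the 11 endothelial markers lay wholly higher in fbn3-/- than in WT libraries and 0 wholly lower. Of all genes tested, 3.74% were wholly higher and 2.45% wholly lower. Of the 10 epidermal markers, 0 lay wholly higher at 2 dpf and 1 wholly lower. At 1 dpf, 0 of the endothelial markers lay wholly higher and 1 wholly lower, against 2.89% and 2.99% of all genes tested.

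**Figure D1:**
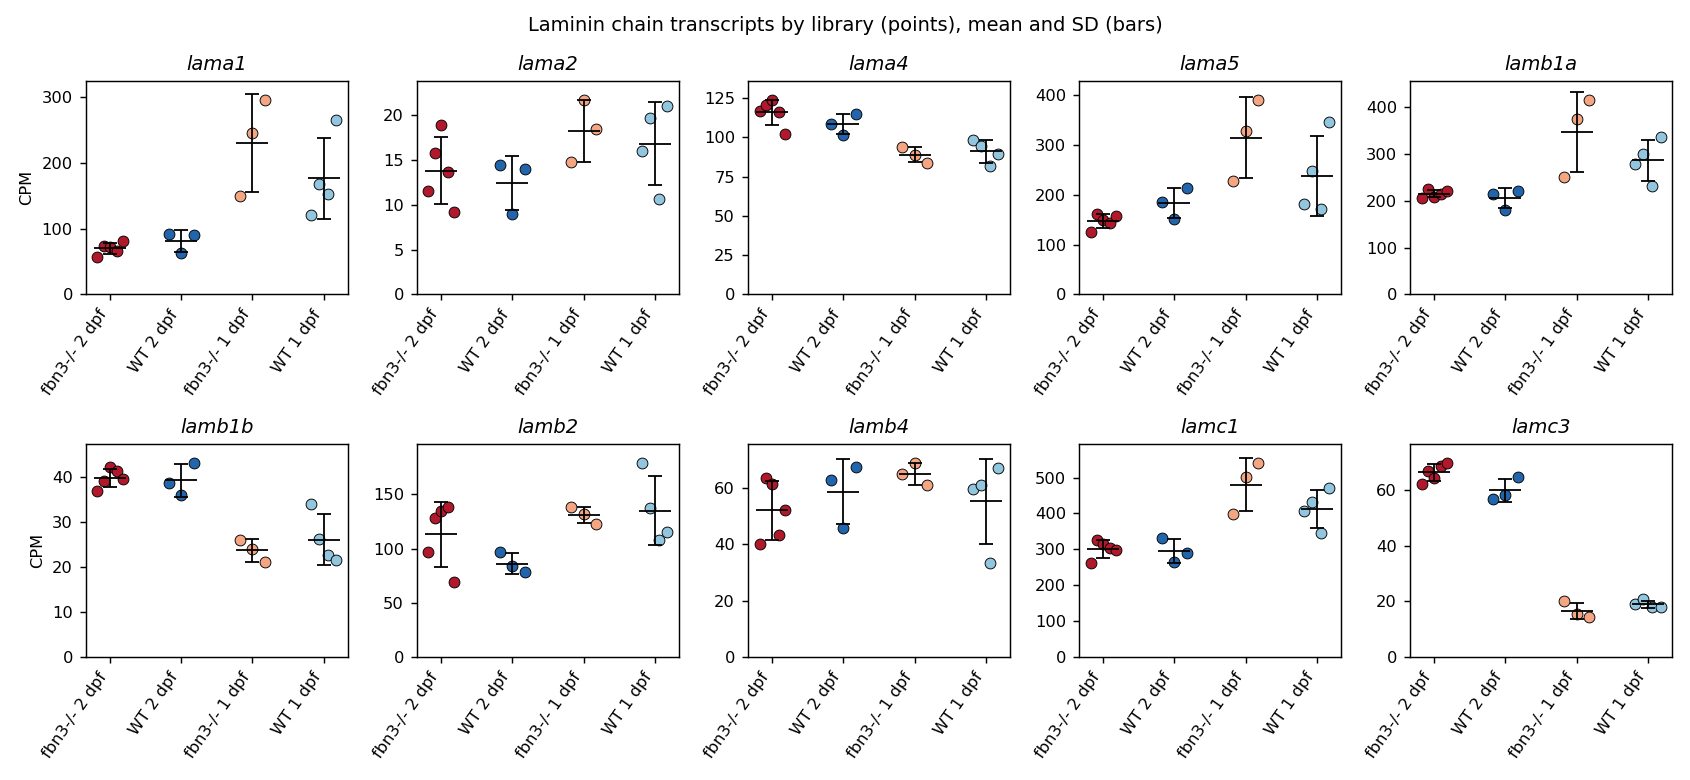
CPM of the 10 laminin chains in each library (points), with the mean and SD of each group (bars), each chain on its own axis starting at 0. The 2 dpf libraries of both genotypes lie wholly above the 1 dpf libraries for lamc3, lamb1b and lama4 and wholly below them for lama1, lamb1a and lamc1, while the fbn3-/- and WT libraries of a stage overlap for every chain.

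Of the 4 alpha chains among the 10, lama1 had the largest difference between the stages. This chain, a part of the first laminins an embryo makes, was at 57.53, 73.4, 71.81, 66.72 and 81.25 CPM in fbn3-/- embryos at 2 dpf, against 149.7, 246.2 and 295.1 CPM in fbn3-/- embryos at 1 dpf. In WT embryos it was at 91.94, 62.61 and 90.25 CPM at 2 dpf, against 121, 167.8, 153.2 and 264.7 CPM at 1 dpf. Every 2 dpf library was below every 1 dpf library of its genotype, and the 1 dpf libraries were the more widely spread. The log2 fold change from the later over the earlier stage was -1.72 in fbn3-/- embryos (SE 0.23, FDR 1.34e-05 by edgeR) and -1.11 in WT embryos (SE 0.253, FDR 0.0016 by edgeR). Within the libraries with lower numbers it was -1.76 in fbn3-/- embryos and -0.60 in WT embryos, where 1 library stood at 2 dpf and the FDR was 0.222 by edgeR. Within the higher numbers the value in WT embryos was -1.38, with an FDR of 0.00616 by edgeR.

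The chain lama5, found widely in epithelial basement membranes, was at 124.9, 161.5, 149.8, 143 and 157.7 CPM in fbn3-/- embryos at 2 dpf, against 227.7, 327.4 and 389.3 CPM in fbn3-/- embryos at 1 dpf. In WT embryos lama5 was at 185.8, 151.4 and 213 CPM at 2 dpf, against 182.3, 248.2, 171.6 and 347 CPM at 1 dpf. The stages were apart in fbn3-/- embryos and overlapped in WT embryos. Its level fell to 0.468 times that at 1 dpf in fbn3-/- embryos (SE 0.207 on the log2 scale, FDR 0.000324 by edgeR), and the ratio in WT embryos was 0.774 (SE 0.222 on the log2 scale, FDR 0.171 by edgeR). The difference between these changes, the interaction of genotype and stage, was -0.72 on the log2 scale and did not pass the test (FDR 0.889 by edgeR).

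Chains lama4 and lama2 are the alpha chains of vessel walls and of muscle. Of these, lama4 was at 117, 120.6, 123.6, 116.5 and 102.3 CPM in fbn3-/- embryos at 2 dpf, against 93.9, 89.16 and 84.02 CPM in fbn3-/- embryos at 1 dpf. In WT embryos it was at 108.8, 101.8 and 114.7 CPM at 2 dpf, against 98.28, 94.86, 81.83 and 89.8 CPM at 1 dpf. The stages did not overlap in either genotype, although the difference was small. The ratio of the stages was 1.30 in fbn3-/- embryos (log2 fold change 0.38, SE 0.0881, FDR 0.00168 by edgeR) and 1.19 in WT embryos (log2 fold change 0.25, SE 0.0908, FDR 0.0291 by edgeR). In WT embryos the call on lama4 was lost without WT replicate 4 at 1 dpf, WT replicate 1 at 2 dpf or WT replicate 3 at 2 dpf, with log2 fold changes of 0.20, 0.25 and 0.21. By contrast, lama2 ranged from 9.18 to 18.8 CPM in fbn3-/- embryos at 2 dpf, against 14.7 to 21.6 CPM in fbn3-/- embryos at 1 dpf. In WT embryos lama2 ranged from 8.96 to 14.4 CPM at 2 dpf, against 10.6 to 20.9 CPM at 1 dpf. These ranges overlapped, and the log2 fold changes of -0.40 in fbn3-/- embryos and -0.43 in WT embryos did not pass (FDR 0.167 and 0.174 by edgeR).

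The 2 beta1 chains went opposite ways. The chain lamb1a, which joins the alpha1 and gamma1 chains in early basement membranes, was at 206.8, 225, 209, 214.7 and 221.6 CPM in fbn3-/- embryos at 2 dpf, against 252.3, 376.1 and 415 CPM in fbn3-/- embryos at 1 dpf. In WT embryos lamb1a was at 215.1, 180.9 and 221 CPM at 2 dpf, against 278.1, 301.1, 231 and 336.2 CPM at 1 dpf. The 2 dpf libraries were the lower ones throughout, with a log2 fold change of -0.69 in fbn3-/- embryos (SE 0.142, FDR 0.00067 by edgeR) and -0.48 in WT embryos (SE 0.153, FDR 0.0149 by edgeR). Without WT replicate 2 at 2 dpf, the library with the lowest lamb1a of its group, the value in WT embryos was -0.35 and did not pass (FDR 0.117 by edgeR). Its paralog lamb1b was at 37.01, 39.28, 42.25, 41.33 and 39.66 CPM in fbn3-/- embryos at 2 dpf, against 26.17, 24.08 and 21.13 CPM in fbn3-/- embryos at 1 dpf. In WT embryos lamb1b was at 38.74, 36.03 and 43.17 CPM at 2 dpf, against 34.01, 26.33, 22.72 and 21.66 CPM at 1 dpf. Every 2 dpf library was the higher, by a log2 fold change of 0.75 in fbn3-/- embryos (SE 0.132, FDR 0.000182 by edgeR) and 0.59 in WT embryos (SE 0.134, FDR 0.00163 by edgeR). The ratio of lamb1a to lamb1b CPM ranged from 4.95 to 5.73 in fbn3-/- embryos at 2 dpf, against 9.64 to 19.6 at 1 dpf. In WT embryos this ratio ranged from 5.02 to 5.55 at 2 dpf, against 8.18 to 15.5 at 1 dpf. How reads that match both paralogs were counted is not given in the sources used here.

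The beta2 chain lamb2, which in vertebrates takes the place of beta1 at neuromuscular junctions and in the kidney filter, was the most uneven of the 4 beta chains in fbn3-/- embryos at 2 dpf. It was at 96.51, 128, 134.5, 138.2 and 68.88 CPM in fbn3-/- embryos at 2 dpf, against 137.9, 132 and 122.6 CPM in fbn3-/- embryos at 1 dpf. In WT embryos lamb2 was at 96.51, 83.94 and 77.97 CPM at 2 dpf, against 178.6, 137.4, 107.8 and 115.4 CPM at 1 dpf. The stages were apart in WT embryos and overlapped in fbn3-/- embryos, where replicates 1 and 5 at 2 dpf were low. The log2 fold change was -0.21 in fbn3-/- embryos (SE 0.199, FDR 0.392 by edgeR) and -0.65 in WT embryos (SE 0.213, FDR 0.0178 by edgeR), and the interaction, 0.44, did not pass. The call on lamb2 in WT embryos was lost without WT replicate 1 at 1 dpf, WT replicate 2 at 2 dpf or WT replicate 3 at 2 dpf, at log2 fold changes of -0.46, -0.58 and -0.58. For lamb4, a further beta chain, the level ranged from 40.2 to 63.3 CPM in fbn3-/- embryos at 2 dpf, against 61.1 to 68.7 CPM in fbn3-/- embryos at 1 dpf. In WT embryos lamb4 ranged from 45.6 to 67.5 CPM at 2 dpf, against 33.2 to 66.9 CPM at 1 dpf. Its log2 fold changes of -0.32 and 0.09, in fbn3-/- and WT embryos, did not pass (FDR 0.192 and 0.743 by edgeR).

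Of the gamma chains among the 10, lamc3 rose and lamc1 fell. The common gamma chain lamc1, a part of most laminin trimers, was at 263, 327.3, 315.8, 303.9 and 298.5 CPM in fbn3-/- embryos at 2 dpf, against 397.5, 501.4 and 540 CPM in fbn3-/- embryos at 1 dpf. In WT embryos lamc1 was at 330.3, 265 and 289.8 CPM at 2 dpf, against 406.8, 431.9, 344.2 and 470.5 CPM at 1 dpf. The stages did not overlap, with a log2 fold change of -0.67 in fbn3-/- embryos (SE 0.122, FDR 0.000241 by edgeR) and -0.49 in WT embryos (SE 0.131, FDR 0.00526 by edgeR). Without WT replicate 2 at 2 dpf, the value in WT embryos was -0.37 and did not pass (FDR 0.0563 by edgeR).

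The gamma3 chain lamc3, whose loss in humans causes malformation of the cerebral cortex, was at 62.18, 66.7, 64.35, 68.35 and 69.5 CPM in fbn3-/- embryos at 2 dpf, against 19.95, 15.53 and 14.43 CPM in fbn3-/- embryos at 1 dpf. In WT embryos lamc3 was at 56.68, 58.24 and 64.53 CPM at 2 dpf, against 19.13, 20.73, 18.15 and 17.81 CPM at 1 dpf. The lowest 2 dpf library was far above the highest 1 dpf library in both genotypes. The log2 fold change was 2.00 in fbn3-/- embryos (SE 0.111, FDR 4.27e-09 by edgeR) and 1.66 in WT embryos (SE 0.107, FDR 1.64e-08 by edgeR), and by its p value lamc3 ranked 44 and 102 of the 23555 genes in these comparisons. Its rise was of like size among libraries with lower numbers, at 1.97 in fbn3-/- embryos and 1.56 in WT embryos, and among those with higher numbers, at 1.85 in WT embryos. The ratio of lamc1 to lamc3 CPM ranged from 4.23 to 4.91 in fbn3-/- embryos at 2 dpf, against 19.9 to 37.4 at 1 dpf. In WT embryos it ranged from 4.49 to 5.83 at 2 dpf, against 18.96 to 26.4 at 1 dpf.

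**Figure D2:**
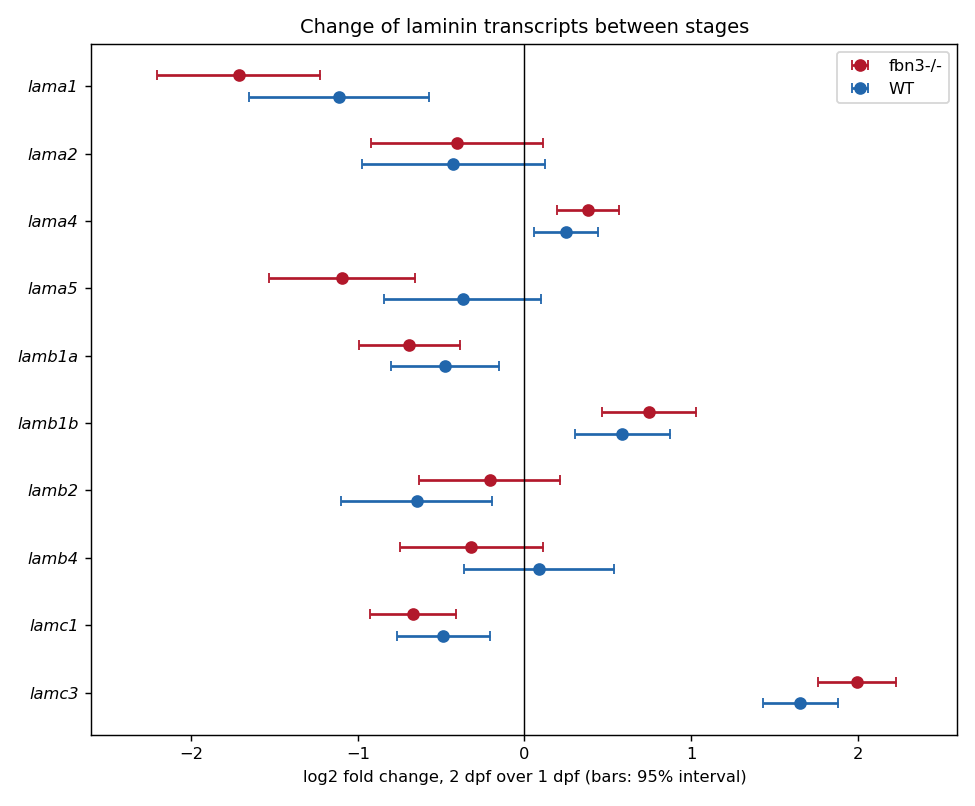
Log2 fold change of each laminin chain at 2 dpf over 1 dpf in fbn3-/- and WT embryos (points), with 95% intervals from the edgeR fit (bars). The values for lamc3, 2.00 and 1.66, stand apart on the right, those for lama1, -1.72 and -1.11, lie farthest to the left, and the intervals of lama2 and lamb4 include 0 in both genotypes.

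Over the family, 7 of the 10 chains passed between the stages in fbn3-/- embryos, 3 higher and 4 lower at 2 dpf, where 56.3% of all genes tested passed, 29.2% higher and 27% lower. In WT embryos 7 of 10 also passed, 3 higher and 4 lower, where 54.6% of all genes tested passed, 27% higher and 27.6% lower. The stages did not overlap for these same 7 chains in each genotype, against 56.3% of all genes in fbn3-/- embryos and 49.7% in WT embryos. Since most genes differed between the stages, these counts are read as near the background. The median log2 fold change of the 10 chains was -0.36 in fbn3-/- embryos and -0.40 in WT embryos, against 9.09e-05 and -0.04 over all genes tested. The 2 sets of 7 shared 6 chains, all in the same direction, which is 85.7% of each set, whereas lama5 passed in fbn3-/- embryos and lamb2 in WT embryos. Of all genes that passed, the shared part was 81.4% of those in fbn3-/- embryos and 84% of those in WT embryos. The number of chains that passed in WT embryos was 4 without WT replicate 2 at 2 dpf. It was 2 among the libraries with lower numbers, which were lamb2 and lamc3, and 4 among those with higher numbers, with lama1, lama4, lamb1b and lamc3. Within the lower numbers, WT embryos kept the direction of the other chains, with 0.42 for lamb1b, 0.23 for lama4, -0.38 for lamb1a and -0.29 for lamc1. In fbn3-/- embryos 7 chains passed under each of the alternatives run. In whole embryos, a change in a transcript per cell and a change in the share of cells that make it cannot be told apart.

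Part of the marker genes also passed between the stages, as did 56.3% of all genes tested in fbn3-/- embryos and 54.6% in WT embryos. Of the 8 notochord markers, 2 were higher and 5 lower at 2 dpf in fbn3-/- embryos, and the same numbers held in WT embryos. Of the 13 rows of skeletal muscle markers, 9 were higher and 3 lower in fbn3-/- embryos, and 5 were higher and 3 lower in WT embryos. Of the 11 endothelial markers, 2 were higher and 4 lower in each genotype, and of the 10 epidermal markers, 1 was higher in each genotype and 3 and 2 were lower in fbn3-/- and WT embryos. The summed level of the notochord markers ranged from 1235 to 1992 CPM in fbn3-/- embryos at 2 dpf, against 1959 to 2240 CPM in fbn3-/- embryos at 1 dpf. In WT embryos this sum ranged from 1513 to 1837 CPM at 2 dpf, against 1493 to 2594 CPM at 1 dpf. Most of the sum was col2a1a. It averaged 1370 CPM at 2 dpf and 1738 CPM at 1 dpf in fbn3-/- embryos, and 1472 and 1582 CPM in WT embryos. The sum thus follows this gene more than the other notochord markers. The part of these tissues in the changes of the laminin chains was not tested.

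Between the genotypes at 2 dpf, 0 of the 10 chains passed the edgeR test, where 0.233% of all genes tested passed, and 0 had an unadjusted p under 0.05, where 10.4% of all genes had one. The fbn3-/- and WT libraries overlapped for all 10 chains, while 6.19% of all genes did not overlap, and the median log2 fold change was 0.05, against 0.01 over all genes tested. The largest differences were in lamb2, at 0.40 (95% interval -0.04 to 0.83, FDR 0.521 by edgeR), and in lama5, at -0.32 (95% interval -0.76 to 0.13, FDR 0.621 by edgeR). The intervals allow a ratio of fbn3-/- to WT embryos of up to 1.77 for lamb2 and down to 0.590 for lama5. They were narrowest for lama4, at 0.941 to 1.22, and ran from 0.852 to 1.23 for lamc1 and from 0.954 to 1.28 for lamc3. Within the lower and the higher library numbers, the log2 fold change at 2 dpf was 0.29 and 0.30 for lamb2 and -0.38 and -0.34 for lama5. The lower numbers hold 1 WT library at 2 dpf, so that the spread of WT pools is not measured there.

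At 1 dpf, 0 of the 10 chains passed between the genotypes, where 0.00425% of all genes tested passed, which is fbn2b alone, and 0 had an unadjusted p under 0.05, where 7.34% of all genes had one. No chain was without overlap between fbn3-/- and WT libraries, as 5.88% of all genes were, and the median log2 fold change was 0.17, against -0.03 over all genes tested. The values were 0.41 for lama5 (95% interval -0.06 to 0.88, FDR 0.707 by edgeR), 0.38 for lama1 (95% interval -0.14 to 0.90, FDR 0.749 by edgeR) and 0.28 for lamb1a (95% interval -0.04 to 0.60, FDR 0.707 by edgeR). The intervals allow a ratio of up to 1.87 for lama1 and 1.83 for lama5, and that of lama4 ran from 0.853 to 1.12. DESeq2 and a likelihood ratio test also called 0 of the chains at either stage. Differences within these intervals were not excluded. Among the libraries with lower numbers, the only ones that hold both genotypes at 1 dpf, the log2 fold change was 0.70 for lama1 and 0.57 for lama5 (FDR 0.303 and 0.316 by edgeR).

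**Figure D3:**
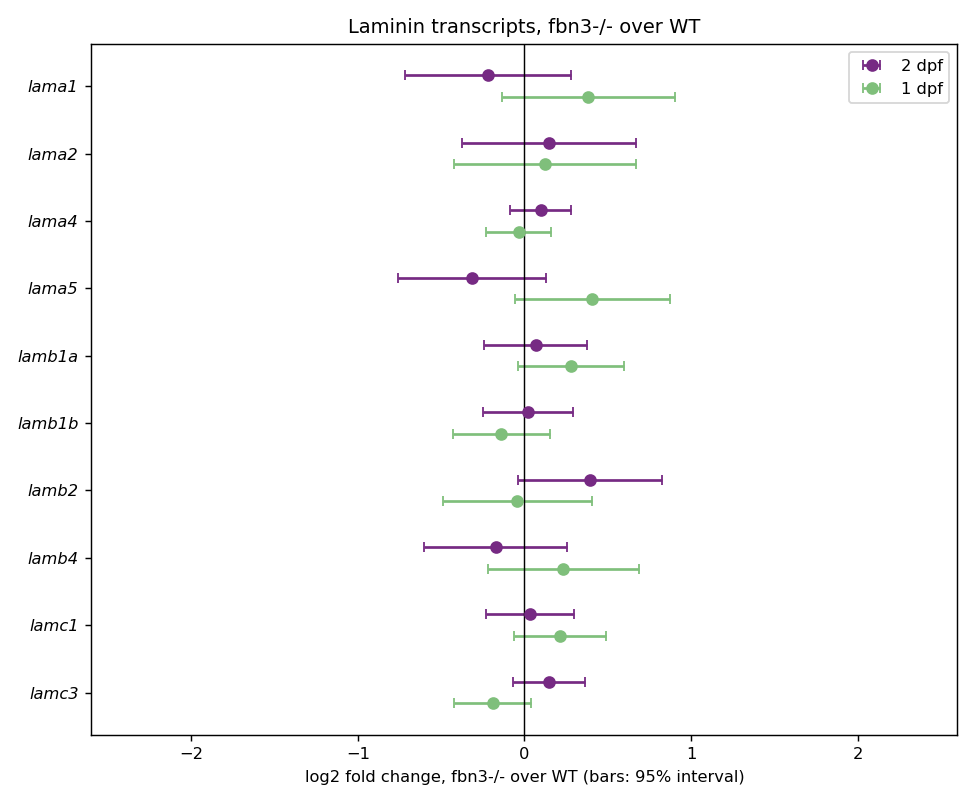
Log2 fold change of each laminin chain in fbn3-/- over WT embryos at 2 dpf and at 1 dpf (points), with 95% intervals from the edgeR fit (bars), on the same scale as the plot of the stages. Every interval includes 0, and those of lama4 are the narrowest, with values of 0.10 at 2 dpf and -0.03 at 1 dpf.

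The change between the stages was compared between the genotypes by the interaction term, the log2 fold change in fbn3-/- embryos less that in WT embryos. Of the 10 chains, 0 passed, where 0.00425% of all genes tested passed, which is the single gene cart3, named after its value was seen. An unadjusted p under 0.05 was found for 2 chains, where 5.51% of all genes had one. These were lama5, at -0.72 (95% interval -1.37 to -0.08), and lamc3, at 0.34 (95% interval 0.02 to 0.65), both with an FDR of 0.889 by edgeR. The value for lama1 was -0.60, with an interval from -1.32 to 0.12.

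Within the 1 dpf groups, part of the chains differed widely from pool to pool. A developmental position was computed for each library from 500 genes that differ between the WT stages, laminin chains left out, with 0 at the mean of WT at 1 dpf and 1 at the mean of WT at 2 dpf. The positions were 0.0485, -0.0751 and -0.0916 in fbn3-/- replicates 1, 2 and 3 at 1 dpf, against -0.0338 to 0.0431 in WT embryos at 1 dpf. Replicates 2 and 3 of fbn3-/- at 1 dpf, the libraries with the earliest positions, had the higher lama1, lama5, lamb1a and lamc1 values of their group and the lower lamc3 values. In WT embryos at 1 dpf, replicate 5 had the earliest position and the highest lama1, lama5, lamb1a and lamc1 of its group. The order did not hold for all WT libraries. Replicate 4, at 0.00113, was lower in lama5, lamb1a and lamc1 than replicate 1, which had the latest position, and higher in lama1. Nor did it hold for lamb2, which was lower at 2 dpf in WT embryos. In fbn3-/- embryos at 1 dpf, lamb2 was at 132 and 122.6 CPM in replicates 2 and 3, against 137.9 CPM in replicate 1. In WT embryos at 1 dpf, it was at 178.6 CPM in replicate 1 and 115.4 CPM in replicate 5. With position as a covariate, added after the data were seen, the log2 fold change between the genotypes at 1 dpf was 0.18 for lama1 and 0.27 for lama5, against 0.38 and 0.41 without it. At 2 dpf the positions ranged from 0.862 to 1.04 in fbn3-/- embryos, against 0.939 to 1.03 in WT embryos, and the covariate gave -0.44 for lama1 and -0.48 for lama5, against -0.22 and -0.32 without it. Again 0 of the chains passed.

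**Figure D4:**
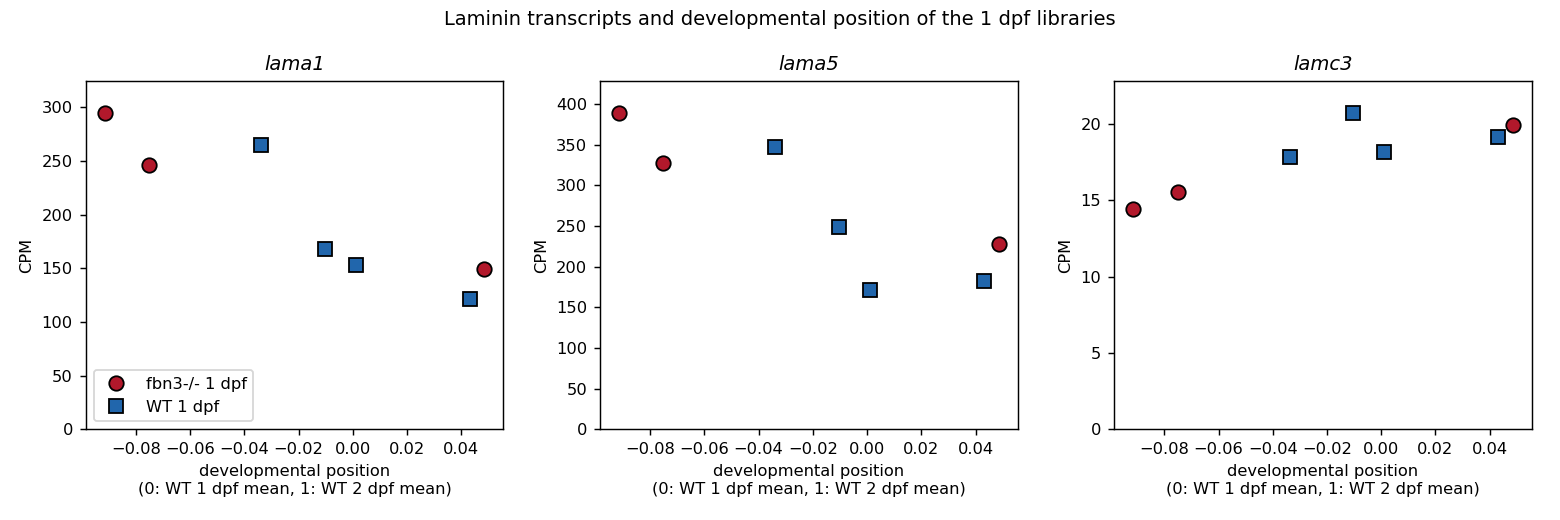
CPM of lama1, lama5 and lamc3 in the 1 dpf libraries (y axis, from 0) against the developmental position of the library (x axis), with fbn3-/- as circles and WT as squares. The fbn3-/- libraries at -0.0751 and -0.0916 and the WT library at -0.0338 have the highest lama1 and lama5 values, and the same fbn3-/- libraries have the lowest lamc3 values.

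Some libraries were low in all chains. In WT replicate 2 at 2 dpf and WT replicate 4 at 1 dpf, 0 of the 10 chains lay above the mean of their group, with a median deviation of -0.16 and -0.28 on the log2 scale. These libraries also had the largest share of counts in mitochondrial genes, 3.83% and 3.62%, where the other 13 ranged from 1.83% to 3.30%. Replicate 1 of fbn3-/- at 2 dpf was low as well, with 1 of the 10 chains above its group mean and a median deviation of -0.19. Its mitochondrial share was 2.78%, within the range of the 13. The part of the mitochondrial share in the laminin values was not tested. Without both WT libraries, a setting added after the data were seen, 6 chains passed between the stages in WT embryos, and the chain lost was lama4, at 0.25 (FDR 0.0669 by edgeR). Over all groups, the variation between libraries beyond counting error was taken from edgeR's dispersion of each gene, estimated apart from the fit of the tests. As a coefficient of variation it was lowest for lama4 (10%) and lamc3 (11%) and highest for lama2 (24.1%) and lama1 (23.3%). The median over all genes tested was 19%.

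The profile most like that of lamc1 was sought among 18383 genes by the root mean square difference of the mean-centred log2 CPM over the 15 libraries. The chain lamb1a ranked 4 at 0.0903, after gigyf2 (0.0825), hspg2 (0.087) and a gene with a clone name only (0.0896), and ahead of ctnnd1 (0.0906). Of these, hspg2 encodes perlecan, the heparan sulfate proteoglycan of basement membranes, and ctnnd1 encodes the catenin p120, which binds cadherins. The ratio of lamb1a to lamc1 CPM ranged from 0.662 to 0.786 in fbn3-/- embryos at 2 dpf, against 0.635 to 0.768 in fbn3-/- embryos at 1 dpf, and from 0.651 to 0.763 in WT embryos at 2 dpf, against 0.671 to 0.714 in WT embryos at 1 dpf. A ratio alike in all groups restates what the search selected for in these same libraries, and is no separate observation. The other chains differed from lamc1 by 0.237 (lama5) to 1.22 (lamc3).

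Of the other laminin genes in the table, lama3 encodes the alpha chain of the laminin that anchors the epidermis, and its level was low. It averaged 1.52 ± 0.115 CPM (SD, n = 5) in fbn3-/- embryos at 2 dpf, against 0.154 ± 0.0502 CPM (SD, n = 3) in fbn3-/- embryos at 1 dpf. In WT embryos lama3 averaged 2.17 ± 0.928 CPM (SD, n = 3) at 2 dpf, against 0.291 ± 0.0784 CPM (SD, n = 4) at 1 dpf. It rose by a log2 fold change of 3.35 in fbn3-/- embryos (FDR 4.07e-06 by edgeR) and 2.92 in WT embryos (FDR 3.82e-06 by edgeR), from counts of 10 to 25 reads per library at 1 dpf. The beta2-like gene lamb2l fell, with log2 fold changes of -1.17 in fbn3-/- embryos and -0.91 in WT embryos (FDR 1.59e-06 and 4.49e-05 by edgeR). Neither lama3 nor lamb2l passed between the genotypes. In the RefSeq annotation of another assembly, GRCz12tu, all 10 chains were found by symbol, and lamb1a and lamb4, and lamb2 and lamb2l, are next to each other with 0 protein-coding genes between. Of these neighbors, lamb1a passed between the stages in both genotypes and lamb4 in neither, with the difference between them not tested, and lamb2 and lamb2l both passed in WT embryos.

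Of 17 basement membrane partners tested, 4 were higher and 8 lower at 2 dpf in fbn3-/- embryos, and 5 were higher and 5 lower in WT embryos. Among all genes tested, 56.3% passed between the stages in fbn3-/- embryos and 54.6% in WT embryos. The endostatin-bearing collagen col18a1b rose most, with log2 fold changes of 3.43 in fbn3-/- and 3.77 in WT embryos. Its level was low, with means of 0.748 and 0.653 CPM at 1 dpf and 7.77 and 8.52 CPM at 2 dpf. The more abundant paralog col18a1a had lower means at 2 dpf. They were 294.2 CPM, against 497.2 CPM at 1 dpf, in fbn3-/- embryos, and 379 against 426.2 CPM in WT embryos. The nidogen nid2a fell by 1.51 and 1.04 on the log2 scale in fbn3-/- and WT embryos, and perlecan, hspg2, fell by 0.75 and 0.50. Of the collagen IV chains, col4a2 rose in both genotypes, with 0.31 in fbn3-/- embryos, only just past the threshold, and 0.72 in WT embryos. The value of col4a1 was 0.33 in fbn3-/- embryos (FDR 0.0689 by edgeR), and it rose by 0.64 in WT embryos. Neither passed in the interaction. The other collagen IV chains did not share this rise. The mean of col4a4 was 6.42 CPM at 2 dpf and 19.3 CPM at 1 dpf in fbn3-/- embryos, and 7.905 and 14.1 CPM in WT embryos. That of col4a3 was also lower at 2 dpf in both genotypes. The means of col4a5 and col4a6 were lower at 2 dpf in fbn3-/- embryos and higher in WT embryos. The median log2 fold change of the 17 genes was -0.29 in fbn3-/- embryos and 0.02 in WT embryos, beside the medians of 9.09e-05 and -0.04 over all genes.

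Of 12 laminin receptor genes tested, 3 were higher and 4 lower at 2 dpf in fbn3-/- embryos, and 4 were higher and 3 lower in WT embryos. The shares of all genes tested that passed were 56.3% in fbn3-/- embryos and 54.6% in WT embryos. The integrin alpha6 gene itga6a fell by 1.48 on the log2 scale in fbn3-/- embryos and by 1.30 in WT embryos. The dystroglycan gene dag1 fell by 1.13 in fbn3-/- embryos and by 0.75 in WT embryos. The integrin beta1 copies differed in direction: itgb1b.2 rose, with 1.43 and 1.72 in fbn3-/- and WT embryos, and itgb1b fell, with -0.39 and -0.57. The median of the list was 0.02 in fbn3-/- embryos and 0.19 in WT embryos.

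Laminin binds dystroglycan through a sugar chain. Of 10 genes for its synthesis, 3 were higher and 2 lower at 2 dpf in fbn3-/- embryos, and the same numbers held in WT embryos. Among them pomgnt2 rose, with 1.01 in fbn3-/- and 0.68 in WT embryos, and large2 fell, with -0.93 and -0.68. Of 9 genes of the dystrophin complex, which holds dystroglycan to the cytoskeleton of muscle, 1 was higher and 2 lower in fbn3-/- embryos, and 1 was higher and 4 lower in WT embryos. Beside both lists, 56.3% of all genes tested passed in fbn3-/- embryos and 54.6% in WT embryos. Sarcospan, sspn, was the gene that rose, with 2.32 in fbn3-/- and 1.21 in WT embryos, and dystrophin, dmd, fell, with -0.45 and -0.76. The medians of these lists were 0.01 and -0.08 in fbn3-/- embryos, against 9.09e-05 over all genes tested, and -0.09 and -0.27 in WT embryos, against -0.04 over all genes tested. On all 4 lists, 0 genes passed between the genotypes at 2 dpf or 1 dpf, or in the interaction. The shares of all genes were 0.233%, 0.00425% and 0.00425%. In the interaction, 6 of 17 partners and 2 of 12 receptors had an unadjusted p under 0.05 by edgeR. So had 0 of 10 sugar chain genes and 2 of 9 dystrophin complex genes, against 5.51% of all genes. At 1 dpf, 2 receptors lay wholly higher in fbn3-/- libraries and 2 sugar chain genes wholly lower, against 2.89% and 2.99% of all genes. At 2 dpf, 1 receptor was wholly higher and 1 partner wholly lower, against 3.74% and 2.45% of all genes.

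**Figure D5:**
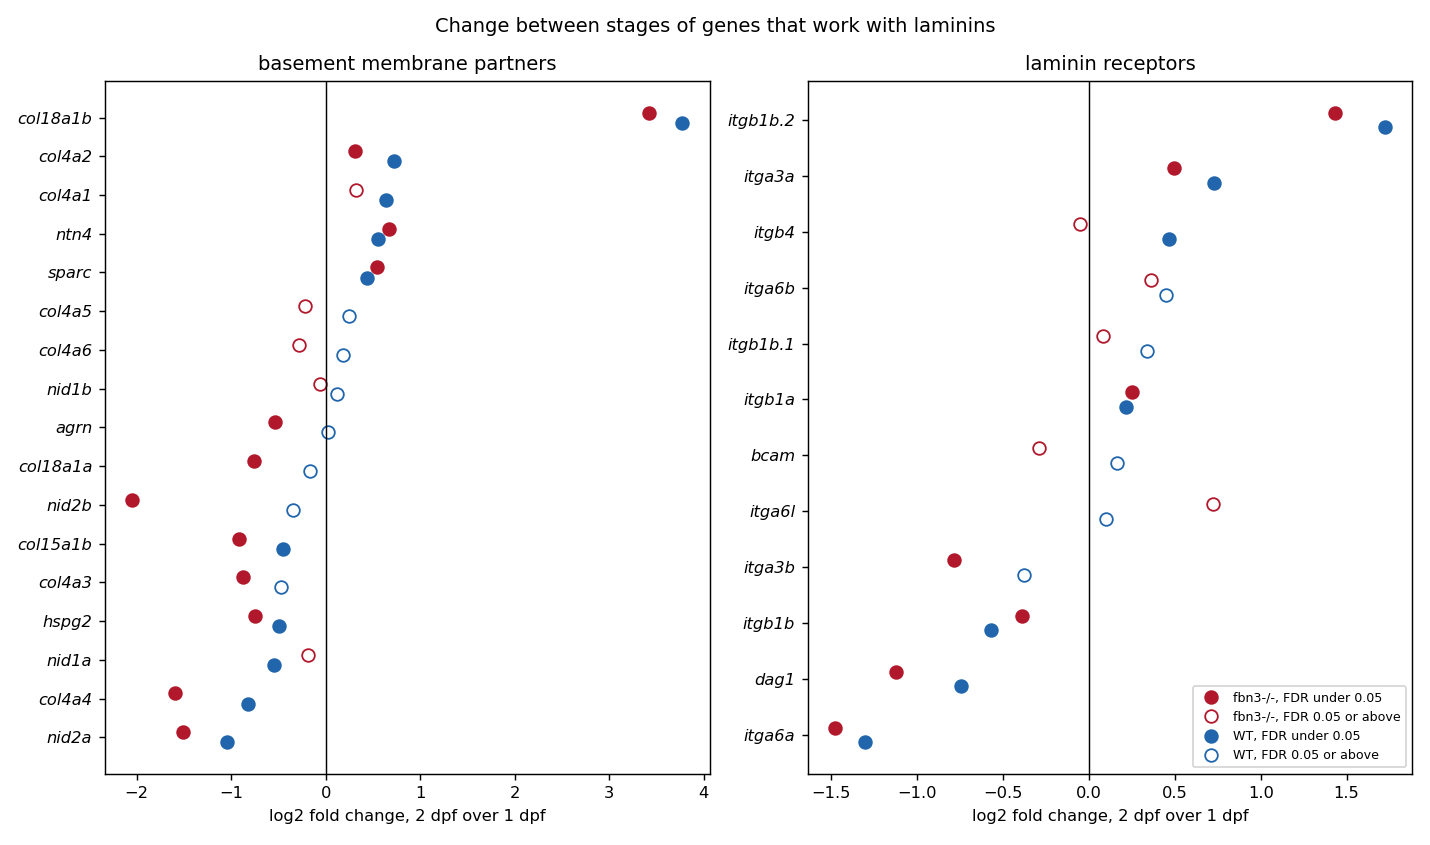
Log2 fold change at 2 dpf over 1 dpf of the basement membrane partners (left) and the laminin receptors (right), in fbn3-/- embryos (red) and WT embryos (blue), with filled points at an FDR under 0.05. On the left col18a1b, at 3.43 and 3.77, is far from the rest, and on the right itgb1b.2 and itga6a are at opposite ends.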

How the data were processed

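Reads of stranded total RNA libraries from pools of whole embryos were trimmed with Trim Galore 0.6.6, checked with FastQC 0.11.9, aligned to GRCz11 with STAR 2.7.6a and counted with featureCounts of Subread 2.0.0, per the submitters' notes and methods. The authors deposited whole-number counts per gene, without normalization. The strand and multimapping settings are not given in the sources used here. By library name, 15 of 23 columns matched a listed sample, 8 matched none and were not used, and 1 of 16 listed samples, WT replicate 3 at 1 dpf, was not analysed here. Groups came from the sample labels.

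The main tool was edgeR 4.0.16 in R 4.3.3, with DESeq2 1.42.0 for alternatives and limma 3.58.1 for the multidimensional scaling. Plots were made in matplotlib 3.10.9 (Python 3.11.15). Genes were kept with filterByExpr (minimum count 10, minimum total 15), scaled with TMM and fitted with 1 coefficient per group in edgeR's quasi-likelihood method (legacy = FALSE), with Benjamini-Hochberg adjustment over 23555 genes in each of 5 contrasts, which compared the genotypes at 2 dpf and 1 dpf, their interaction with stage, and the stages in each genotype. The procedure was also run on counts simulated with the same mean in all groups for most genes. That run does not measure how well differences as small as those of the chains between genotypes are found. Log2 CPM for likeness and position used a prior count of 2, and likeness was sought among genes with a mean of at least 1 CPM. Intervals are 95% intervals from the SE and the total degrees of freedom of the quasi-likelihood test. The labels number biological replicates, and p values measure the spread between these pools. No pair of libraries agreed within sampling noise.

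The laminin chains and the gene lists were chosen with earlier results of these data known. Named genes were all 10 chains, other laminin genes (1 is not reported here), fbn2b, the 5 genes closest to lamc1, and list members that passed, at most 4 with the lowest FDR in each direction. The alternatives were DESeq2, other scalings, filters and tests, separate fits, each library left out, a replicate term, and the sets of library numbers. No genome or protein sequence was used here.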

Additional observations from a re-analysis of the deposited data

How the results depend on the processing

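Counts of the laminin chains kept their values in most settings. Between the genotypes and in the interaction, 0 chains passed in every setting run, and in fbn3-/- embryos 7 passed between the stages in every setting run. In WT embryos the number between the stages was 2 among the lower library numbers, 4 among the higher ones, and 4 to 7 with a library left out, lowest without WT replicate 2 at 2 dpf.

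The number of genes called in the whole table moved more. Between the genotypes at 2 dpf, against 55, it was 207 with DESeq2, 151 with the likelihood ratio test, 21 with the legacy quasi-likelihood method, 24 in a separate fit of the stage, 86 with the library number set as a covariate, 20 among lower and 1079 among higher numbers, and 13 to 455 with a library left out. At 1 dpf, against 1, it was 68 with DESeq2, 41 with the likelihood ratio test, 0 in a separate fit, 3 with the set as a covariate, 15 among lower numbers, and 1 to 76 with a library left out. For the interaction, against 1, it was 37 with DESeq2, 29 with the likelihood ratio test, 3 with the set as a covariate, 0 among lower numbers, and 1 to 5 with a library left out. Between the stages in WT embryos it was 7827 among lower numbers, against 12852. Without WT replicate 4 at 1 dpf and WT replicate 2 at 2 dpf, the numbers were 24 at 2 dpf, 3 at 1 dpf and 2 for the interaction. The cause of these shifts was not tested.

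Deviations from the group means correlated between same-numbered replicates at 0.16 and 0.0215 at 1 dpf, and at -0.0277, -0.164 and -0.114 at 2 dpf. Whether the numbers pair the libraries cannot be decided from so few pairs. The pairs at -0.164 and -0.114 also join a library with a lower number to one with a higher number. With a replicate block over replicates 1 to 3, the counts were 3 genes at 1 dpf and 0 for the interaction, against 6 at 1 dpf without the block. With the block, lama2 at 1 dpf was -0.0518 and lamb4 between the stages in WT embryos was -0.0608. The sign of lamb4 was also turned in the same libraries without the block (-0.00848), as was that of lamb1b at 2 dpf (-0.00135).

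Other reversals were in chains that did not pass and lay near 0 on the log2 scale. Between the genotypes at 2 dpf, no filter gave -0.0199 for lamb1b and -0.00727 for lamc1, the set covariate -0.0117 for lamb1b, the lower numbers -0.0327 for lamb1a and -0.152 for lamc1, and the higher numbers -0.0608 for lama2, -0.0429 for lama4 and -0.0263 for lamb1b. At 1 dpf the set covariate gave -0.0331 for lama2, and in the interaction no filter gave -0.0335 for lama2. The position covariate gave 0.000862 for lama4 and 0.0171 for lamb2 at 1 dpf, and -0.0336 for lamb1a and -0.0528 for lamc1 at 2 dpf. Without the 2 WT libraries named above, lama2 was -0.0476 at 1 dpf, and at 2 dpf lama2 was -0.0407, lamb1a -0.0182, lamb1b -0.0381 and lamc1 -0.0398. With a library left out, values at 1 dpf ranged from -0.0488 to 0.258 for lama2, from -0.0838 to 0.00667 for lama4, from -0.217 to 0.00176 for lamb1b and from -0.137 to 0.114 for lamb2. At 2 dpf they ranged from -0.0671 to 0.263 for lama2, from -0.0459 to 0.121 for lamb1a, from -0.0658 to 0.0934 for lamb1b and from -0.0674 to 0.12 for lamc1. The interaction of lama2 ranged from -0.204 to 0.196, and lamb4 between the stages in WT embryos from -0.0926 to 0.284. Levels per length of the chains were not run, since no lengths were used here.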

Other observations

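The epidermal chain lama3 was the only laminin gene whose libraries did not overlap between the genotypes, and only at 1 dpf. It was at 0.1637, 0.1987 and 0.0997 CPM in fbn3-/- embryos at 1 dpf, against 0.3716, 0.3419, 0.2077 and 0.242 CPM in WT embryos at 1 dpf, so that the highest fbn3-/- value was under the lowest WT value, as for 2.99% of all genes tested. Counting both directions, 5.88% of all genes tested did not overlap at 1 dpf. The log2 fold change of -0.97 for lama3 rests on 10 to 25 reads per library and did not pass (FDR 0.722 by edgeR). At 2 dpf the libraries overlapped, with 1.686, 1.588, 1.439, 1.406 and 1.492 CPM in fbn3-/- embryos, against 1.164, 2.993 and 2.353 CPM in WT embryos, and the log2 fold change of -0.53 did not pass (FDR 0.444 by edgeR). The gene was singled out after its values were seen.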
